A study of Homo sapiens with 15 samples.

Results

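Glycolytic enzymes and other targets of the hypoxia-inducible factors (HIF) were followed in MH7A cells under 5 conditions. The members were 37 listed genes, 19 enzymes that carry or regulate glycolysis and 18 other HIF targets, taken from a list of names. Each gene was read from the brightest transcript cluster, the probe summary of the array, that carries its symbol alone. Of the 37 genes, 34 had such a cluster and all 34 passed the filter on dim genes, so that 18 glycolytic enzymes and 16 other HIF targets were tested among 16872 genes in all. PGAM1 was represented only by clusters that carry several symbols and is not reported, and CA9 and SLC16A3 were not analysed here.

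MH7A is an established line of human synovial fibroblast-like cells, and the study asked how glucosamine (GlcN) alters gene expression in these cells after stimulation with IL-1β, and which of the alterations depend on the addition of O-GlcNAc to proteins. RNA was profiled on 15 Affymetrix Human Gene 1.0 ST arrays, 3 per condition, and each of 3 experiments supplied every condition once. The conditions were resting cells without any addition, IL-1β alone (13 h, 15 pg/ml), IL-1β with GlcN, IL-1β with both GlcN and alloxan, and IL-1β with alloxan alone. GlcN was given at 5 mM, 2.5 h ahead of IL-1β, and alloxan, an inhibitor of the O-GlcNAc transferase, was preincubated for 30 min at 5 mM and kept at 2 mM afterwards, as the labels describe it for the combination. All arrays came from 1 cell line, which was maintained with serum and, by the study's methods, moved to serum-free medium for the treatments. No label names a hypoxic condition.

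Glycolysis splits glucose into pyruvate, and lactate dehydrogenase turns pyruvate into lactate. HIF-1 and HIF-2 are transcription factors made of an oxygen-regulated alpha subunit and the stable partner ARNT. When oxygen is short the alpha subunit escapes hydroxylation by the prolyl hydroxylases (the EGLN proteins) and degradation through VHL, and the dimer binds the short core of hypoxia response elements, ACGTG or GCGTG. Its best known targets are the glycolytic enzymes, the kinase PDK1 that closes the pyruvate dehydrogenase gate to mitochondria, VEGFA and adrenomedullin. Synovial tissue in arthritis is known to be poorly oxygenated and glycolytic, and synovial fibroblasts use this programme.

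On the labelled tissue, the mesenchymal markers VIM, FN1 and COL1A1 lay at median percentiles of 98.7, 96.8 and 91.2 of their arrays. The other synovial fibroblast markers listed were spread widely. CD55 lay at 89.1, THY1 at 80.9, PDGFRB at 79.2, COL1A2 at 71.6 and COL3A1 at 68.3. CDH11 lay at 46.4, S100A4 at 43.7, PDPN at 30.7 and FAP at 25.7. Among markers of other cell types, PTPRC of leukocytes lay at 10.1, EPCAM of epithelium at 18.4 and PECAM1 of endothelium at 22.6. The endothelial markers VWF and CDH5 lay higher, at 35.8 and 40.1. MS4A1 lay at 15.0, CD163 at 21.6, CD3E at 29.2 and CD14 at 44.4. VWF, CDH5 and CD14 thus lay above the synovial fibroblast markers PDPN and FAP. The keratin genes KRT18 and KRT8 lay at 94.8 and 84.2 and the macrophage-associated gene CD68 at 84.3. Array medians were 6.18 to 6.21 in experiment 1, 7.14 to 7.19 in experiment 2 and 7.49 to 7.54 in experiment 3 on the log2 scale, so that levels are compared within an experiment throughout.

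Upstream sequences of members are shown here because the HIF core letters can be read in them directly. Windows from 250 bases before to 50 after the start site were matched by symbol for 33 of the 37 members (RefSeq, GRCh38.p14). ACGTG or GCGTG, searched on both strands, with ACGTG overlapping itself in CACGTG, stood in 42 of the members' 62 windows (67.7%) and in 17012 of all 35116 windows (48.4%). Among members lower with GlcN 19 of 28 windows held these letters (67.9%), and among tested members that were not lower 19 of 27 (70.4%). Counted by gene, with any window, it was 15 of 15 members lower and 13 of 15 not lower (100% and 86.7%), against 52.4% of all genes in the table. The count by gene grows with the number of windows per gene, which was 62 for 33 members and 35116 for 27305 genes in all. The members were also listed as glycolysis and HIF genes, so their share is not a test against all genes. A match is a description of the sequence and not a bound site. The 250 bases before the start site are printed for the 3 members lower with GlcN that have 1 window and the smallest p, BHLHE40 (chr3:4979187-4979436, plus strand), ENO2 (chr12:6914330-6914579, plus strand) and ALDOC (chr17:28576896-28577145, minus strand), and for the reference gene GAPDH (chr12:6535014-6535263, plus strand). Each reads 5′ to 3′ along its gene, with ACGTG and GCGTG on either strand in capitals.
BHLHE40: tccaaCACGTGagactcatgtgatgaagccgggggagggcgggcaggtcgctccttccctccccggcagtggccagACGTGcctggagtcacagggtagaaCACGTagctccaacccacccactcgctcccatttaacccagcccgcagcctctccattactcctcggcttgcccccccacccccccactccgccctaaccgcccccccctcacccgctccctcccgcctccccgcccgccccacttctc
ENO2: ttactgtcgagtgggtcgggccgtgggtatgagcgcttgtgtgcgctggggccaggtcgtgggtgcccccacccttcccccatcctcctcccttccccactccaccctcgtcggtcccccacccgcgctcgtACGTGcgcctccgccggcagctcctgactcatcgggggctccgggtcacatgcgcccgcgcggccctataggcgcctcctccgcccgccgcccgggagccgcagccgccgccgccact
ALDOC: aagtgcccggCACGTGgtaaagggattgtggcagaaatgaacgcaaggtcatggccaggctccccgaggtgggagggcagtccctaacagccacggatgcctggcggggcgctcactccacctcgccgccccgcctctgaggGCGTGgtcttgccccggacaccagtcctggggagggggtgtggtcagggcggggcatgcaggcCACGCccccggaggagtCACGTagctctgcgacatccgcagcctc
GAPDH: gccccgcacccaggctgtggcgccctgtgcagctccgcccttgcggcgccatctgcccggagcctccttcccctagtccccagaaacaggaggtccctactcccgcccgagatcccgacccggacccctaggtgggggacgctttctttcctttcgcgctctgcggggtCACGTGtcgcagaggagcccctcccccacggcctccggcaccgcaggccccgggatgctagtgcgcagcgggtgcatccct
ENO2 held a single copy, at position -118 from the start site, whereas ALDOC held 5 matches in 4 stretches. GAPDH, whose signal is the flattest of those shown here, held the palindrome CACGTG that also stands in the windows of BHLHE40 and ALDOC.

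Taken within experiments, both groups of members were low with GlcN. The plot of member-group medians gives, for each array, the median over the members of the log2 signal minus the mean of the 5 arrays of that experiment. For the glycolytic enzymes it was 0.12, 0.12 and 0.06 in resting cells and 0.10, 0.01 and 0.02 with IL-1β alone. With GlcN it was -0.18, -0.19 and -0.19, and 17, 18 and 18 of the 18 enzymes lay below the mean of their experiment. With GlcN and alloxan together it was -0.12, -0.13 and 0.00, and with alloxan alone 0.07, 0.16 and 0.05. The other HIF targets followed the same order for GlcN, with medians of -0.16, -0.15 and -0.20, and were highest with alloxan alone at 0.13, 0.16 and 0.14. In both groups the 3 GlcN arrays were the lowest of their own experiments.

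**Figure D1:**
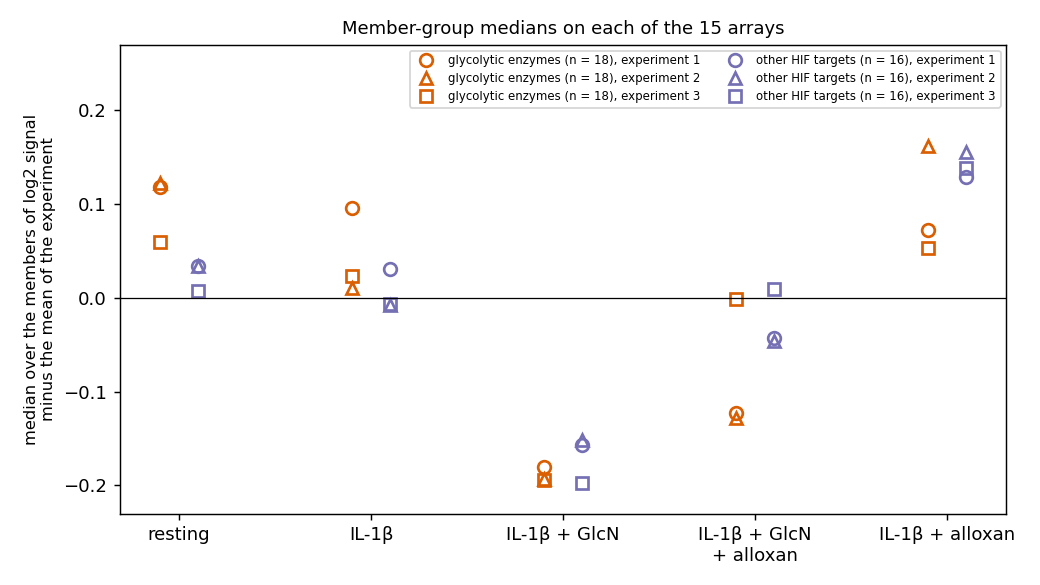
Median over the 18 glycolytic enzymes (orange) and the 16 other HIF targets (violet) of the log2 signal minus the mean of the 5 arrays of the same experiment, one point per array, with the experiment given by the symbol. The 3 GlcN arrays lie between -0.20 and -0.15 in both groups and below every other array of their experiment.

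Over the 5 conditions 23 of the 34 members differed at an adjusted p under 0.05 (limma F test, with the experiment as a block and adjustment over all 16872 genes), where 25% of all genes did. These were 13 of the 18 glycolytic enzymes and 10 of the 16 other HIF targets. VEGFA, BHLHE40, PFKFB3 and PFKP had the smallest p. GPI, PFKL, PFKFB2, ALDOA, GAPDH, CA12, BNIP3L, EGLN3, P4HA1, P4HA2 and MXI1 did not pass.

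**Figure D2:**
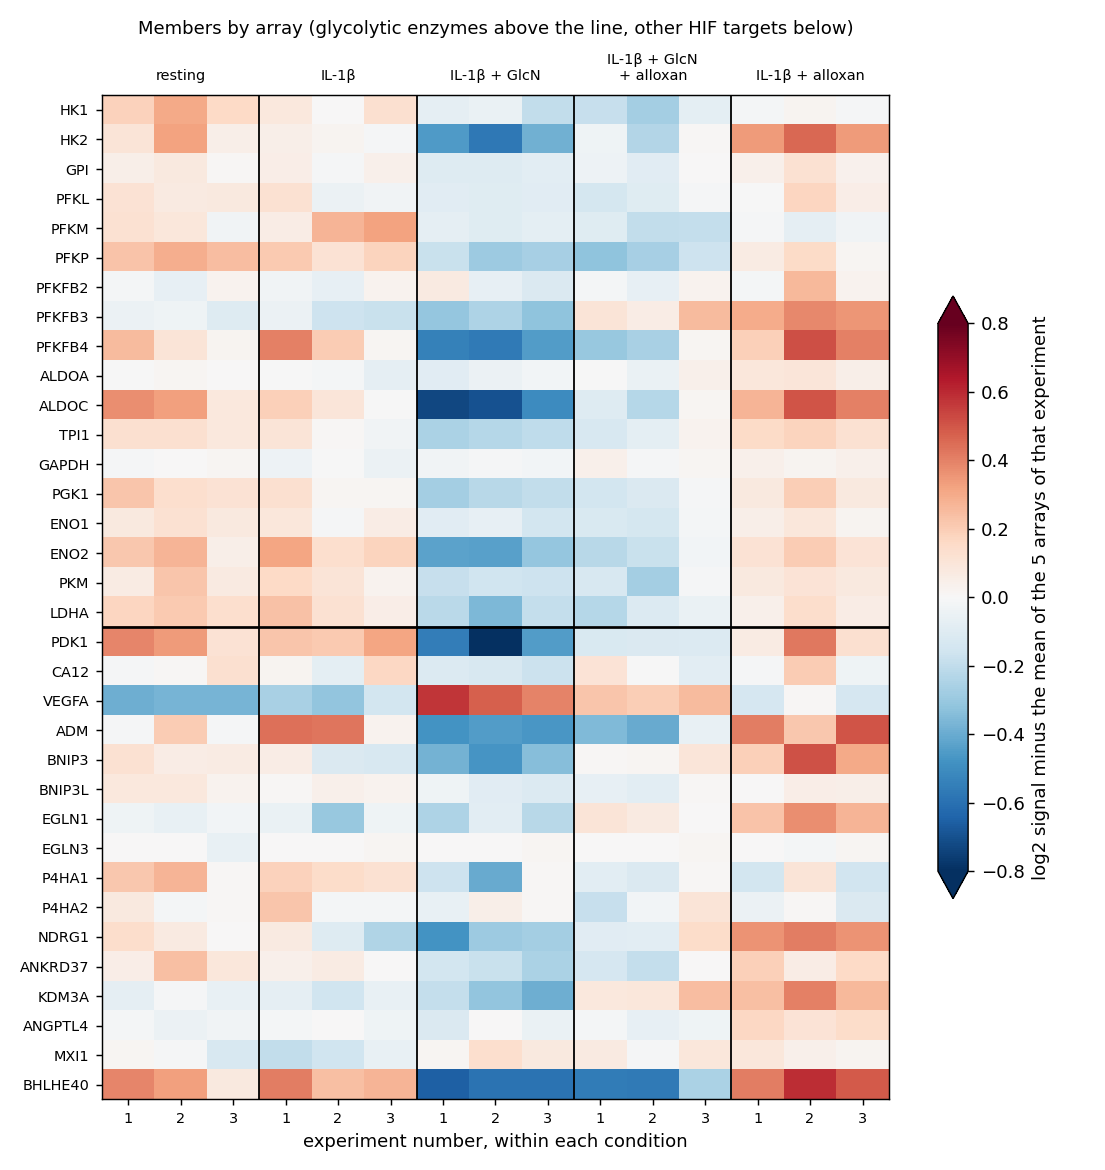
Heat map of the 34 tested members (rows) on the 15 arrays (columns, grouped by condition and numbered by experiment). Colour is the log2 signal minus the mean of the 5 arrays of that experiment, red above and blue below. Most rows are blue under IL-1β + GlcN, where VEGFA is red, and the columns of IL-1β + alloxan without GlcN are mostly red.

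No change of these genes with IL-1β itself was detected. None of the 34 members passed the adjusted threshold against resting cells, nor did any of the 16872 genes (0% higher, 0% lower). Over all genes the log2 changes ran from -1.10 to 1.92, and the smallest adjusted p in limma was 0.169. The lack of calls therefore does not show that IL-1β left gene expression unchanged. At an unadjusted p under 0.05, 2 members were higher, PFKM and VEGFA, and 0 were lower, with 491 and 486 in the whole table, while the methods' t-test, run here on the deposited log2 values, found 0 members at that level. The median change was -0.04 over the glycolytic enzymes and -0.02 over the other HIF targets on the log2 scale. ADM had the largest mean difference, 0.24 ± 0.21 (SD, n = 3 experiments; adjusted p = 0.865). For HK2 the difference was -0.14 with a 95% interval from -0.33 to 0.05, and for LDHA it was -0.04 ± 0.09.

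GlcN lowered 15 of the 34 members in IL-1β-stimulated cells and raised 2, VEGFA and MXI1, where 6.62% of all genes tested were lower and 5.29% higher. The 15 were 10 of the 18 glycolytic enzymes, with 0 higher, and 5 of the 16 other HIF targets, with 2 higher. The change was negative in 30 of the 34 members, and in 25 it was negative in all 3 experiments. The median log2 change was -0.22 over the members against 0.01 over all genes. It was -0.26 for the glycolytic enzymes (-0.30, -0.24 and -0.21 in experiments 1, 2 and 3) and -0.19 for the other HIF targets (-0.19, -0.14 and -0.17). The difference between the 2 groups of members was not tested.

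These calls rest on within-experiment differences and on a spread pooled over all 5 conditions. In limma without the experiment as a block, 0 members passed in any comparison, also at an unadjusted p under 0.05. For HK1, the standard error of the GlcN effect was 0.596 log2 units in that fit and 0.065 with the block. With the block over the arrays of IL-1β alone and GlcN only, 0 members passed either. Without experiment 2 the number lower was 6, and without experiment 1 it was 8, while PFKP, ALDOC, ENO2, PDK1, VEGFA and BHLHE40 kept their calls whichever experiment was left out. Less RNA per cell and fewer cells expressing a gene cannot be told apart in bulk RNA.

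**Figure D3:**
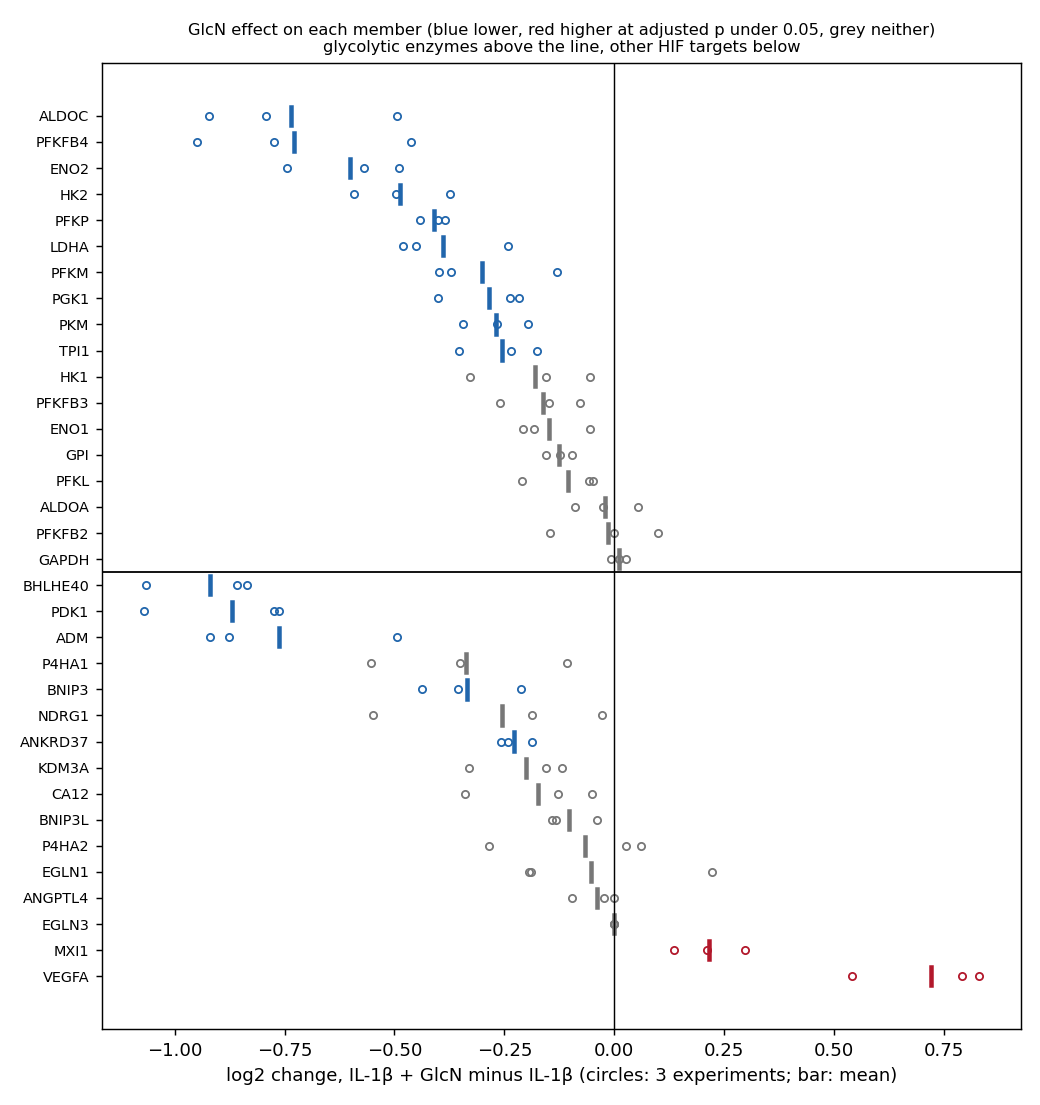
Log2 change with GlcN (IL-1β + GlcN minus IL-1β alone) for each tested member, with circles for the 3 experiments and a bar for their mean, blue for lower, red for higher and grey for neither at adjusted p under 0.05. The changes run from -0.92 for BHLHE40 to 0.72 for VEGFA, and GAPDH lies at 0.01.

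The enzymes are given in the order of the pathway, from the step that traps glucose in the cell. HK2, the inducible hexokinase, read 8.78, 10.05 and 10.57 with IL-1β alone in experiments 1, 2 and 3, and 8.29, 9.45 and 10.19 with GlcN. It read 8.85, 10.35 and 10.63 in resting cells, 8.70, 9.79 and 10.59 with GlcN and alloxan, and 9.08, 10.48 and 10.92 with alloxan alone. The GlcN array was the lowest and the alloxan array the highest of the 5 in each experiment. The change with GlcN was -0.49 ± 0.11 (SD, n = 3; adjusted p = 0.00371), a fold of 0.713. For HK1, the constitutive hexokinase, it was -0.18 ± 0.14 (adjusted p = 0.103).

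Phosphofructokinase is the committed step, and PFKP is its platelet-type subunit. PFKP read 10.59, 11.39 and 11.76 with IL-1β alone and 10.20, 10.99 and 11.32 with GlcN. In resting cells it read 10.61, 11.57 and 11.83, with GlcN and alloxan 10.06, 11.01 and 11.42, and with alloxan alone 10.45, 11.43 and 11.60. Both GlcN conditions lay below the other 3 in every experiment. PFKP fell by 0.41 on the log2 scale, with the narrowest spread among the members lowered, an SD of 0.03 (adjusted p = 0.000809). PFKM, the muscle-type subunit, fell by 0.30 (adjusted p = 0.0147), and PFKL, the liver-type subunit, gave -0.11 (adjusted p = 0.319).

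The PFKFB enzymes make and remove fructose 2,6-bisphosphate, which activates phosphofructokinase. PFKFB4 read 8.57, 9.17 and 9.33 with IL-1β alone and 7.63, 8.39 and 8.87 with GlcN. It read 8.42, 9.07 and 9.34 in resting cells, 7.86, 8.70 and 9.33 with GlcN and alloxan, and 8.36, 9.48 and 9.72 with alloxan alone. The drop with GlcN was largest in experiment 1 and smallest in experiment 3, and the mean was -0.73 ± 0.25 (adjusted p = 0.00277). PFKFB3 gave -0.16 (adjusted p = 0.104) and PFKFB2 gave -0.02.

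Aldolase C, the brain-type aldolase, had the largest change among the enzymes. ALDOC read 8.67, 9.28 and 9.34 with IL-1β alone and 7.75, 8.49 and 8.85 with GlcN. The other readings were 8.85, 9.52 and 9.44 at rest, 8.37, 8.96 and 9.37 with GlcN and alloxan, and 8.75, 9.69 and 9.75 with alloxan alone. GlcN gave the lowest array of each experiment, with a change of -0.74 ± 0.22 (adjusted p = 0.000844) or 0.600-fold. ALDOA, the ubiquitous aldolase, gave -0.02 (95% interval -0.11 to 0.07).

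Further down the pathway, enolase gave a like pair. ENO2, known as neuron-specific enolase and a HIF target in other cells, read 10.56, 11.35 and 11.52 with IL-1β alone and 9.82, 10.79 and 11.03 with GlcN. It read 10.47, 11.49 and 11.39 at rest, 10.02, 11.04 and 11.32 with GlcN and alloxan, and 10.36, 11.42 and 11.45 with alloxan alone. The 2 GlcN conditions were the 2 lowest in every experiment. ENO2 fell by 0.60 on the log2 scale (SD 0.13; adjusted p = 0.000522), whereas ENO1, the ubiquitous enolase, gave -0.15 ± 0.08 (adjusted p = 0.0679). The differences between isozymes of one step were not tested.

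LDHA, which makes lactate, read 12.59, 13.08 and 13.31 with IL-1β alone and 12.13, 12.59 and 13.07 with GlcN. It read 12.52, 13.16 and 13.40 at rest, 12.12, 12.84 and 13.21 with both agents and 12.39, 13.09 and 13.32 with alloxan alone. Here too the 2 GlcN conditions were below the other 3 in each experiment, and the change was -0.39 ± 0.13 (adjusted p = 0.00329). TPI1, which interconverts the triose phosphates, fell by 0.26 (adjusted p = 0.00677), PGK1, which makes ATP, by 0.28 (adjusted p = 0.00756), and the pyruvate kinase PKM by 0.27 (adjusted p = 0.0226). The isomerase GPI gave -0.13 ± 0.03 and did not pass (adjusted p = 0.0817).

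GAPDH, between the trioses and PGK1 in the pathway and often used as a reference gene, did not follow. It read 13.28, 13.87 and 13.94 with IL-1β alone and 13.29, 13.86 and 13.97 with GlcN. It read 13.31, 13.87 and 14.00 at rest, 13.36, 13.86 and 14.00 with both agents and 13.36, 13.89 and 14.03 with alloxan alone. The change with GlcN was 0.01, with a 95% interval from -0.06 to 0.09. Its cluster was at the 99.9th percentile or above on every array, and GAPDH has near-identical processed copies in the genome that array probes cannot separate.

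Among the other HIF targets, PDK1 had the largest change of those that act in metabolism. PDK1, the kinase that inactivates pyruvate dehydrogenase, read 9.68, 10.27 and 10.66 with IL-1β alone and 8.91, 9.20 and 9.90 with GlcN. It read 9.86, 10.39 and 10.47 at rest, 9.34, 9.94 and 10.24 with both agents and 9.53, 10.48 and 10.48 with alloxan alone. The GlcN array was the lowest and the array with both agents the second lowest in each experiment. PDK1 fell by 0.87 on the log2 scale (SD 0.17; adjusted p = 0.000756).

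BHLHE40, a repressor of transcription that HIF induces and that takes part in the circadian clock, fell furthest. It read 10.08, 10.60 and 10.60 with IL-1β alone and 9.01, 9.77 and 9.74 with GlcN. It read 10.06, 10.69 and 10.41 at rest, 9.10, 9.79 and 10.08 with both agents and 10.07, 10.95 and 10.82 with alloxan alone. The arrays with GlcN and with both agents lay below the other 3 in each experiment. The change with GlcN was -0.92 ± 0.13, a fold of 0.529 (adjusted p = 0.000188).

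Of the secreted targets, ADM and VEGFA went in opposite directions. ADM, the vasodilator peptide adrenomedullin, read 8.08, 9.30 and 9.02 with IL-1β alone and 7.16, 8.43 and 8.53 with GlcN. Its readings were 7.63, 9.08 and 8.99 at rest, 7.29, 8.47 and 8.94 with both agents and 8.05, 9.09 and 9.50 with alloxan alone. GlcN gave the lowest array of each experiment and a change of -0.76 ± 0.23 (adjusted p = 0.00284).

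VEGFA, the main angiogenic growth factor, read 8.61, 9.70 and 10.24 with IL-1β alone and 9.44, 10.49 and 10.78 with GlcN. It read 8.47, 9.64 and 10.01 at rest, 9.09, 10.21 and 10.64 with both agents and 8.73, 10.02 and 10.24 with alloxan alone. The GlcN array was the highest and the array with both agents the second highest in every experiment. VEGFA rose by 0.72 ± 0.16, or 1.65-fold, with the smallest p of all members (adjusted p = 3.29e-05). ANGPTL4, a secreted inhibitor of lipoprotein lipase, gave -0.04 (adjusted p = 0.615).

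BNIP3, a mitophagy receptor on mitochondria, read 11.31, 11.83 and 12.11 with IL-1β alone and 10.88, 11.47 and 11.89 with GlcN. It read 11.37, 12.00 and 12.30 at rest, 11.26, 11.96 and 12.33 with both agents and 11.44, 12.45 and 12.54 with alloxan alone. GlcN alone gave the lowest array of each experiment, with a change of -0.34 ± 0.11 (adjusted p = 0.0194). Its relative BNIP3L gave -0.10 (adjusted p = 0.138). MXI1, an antagonist of MYC, went the other way. It read 6.90, 8.07 and 8.47 with IL-1β alone and 7.11, 8.36 and 8.61 with GlcN. Its readings were 7.11, 8.22 and 8.40 at rest, 7.17, 8.22 and 8.62 with both agents and 7.19, 8.27 and 8.55 with alloxan alone. In experiments 1 and 2 the IL-1β array was the lowest of the 5, so that the rise of 0.21 (adjusted p = 0.0323) was measured against a low array there. In experiment 1 the GlcN array read no higher than the resting array.

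Of the remaining targets, ANKRD37, an ankyrin repeat protein, fell by 0.23 (adjusted p = 0.047). P4HA1, a catalytic subunit of the enzyme that hydroxylates collagen prolines, gave -0.34 ± 0.22 and did not pass (adjusted p = 0.0667), and P4HA2 gave -0.07. For the histone demethylase KDM3A the change was -0.20 (adjusted p = 0.0822), for NDRG1, a stress-responsive gene, -0.25 (adjusted p = 0.101), and for the carbonic anhydrase CA12 -0.17 (adjusted p = 0.223). The HIF prolyl hydroxylase EGLN1 gave -0.05 ± 0.24, with a rise in experiment 2 and a drop in the other two. EGLN3 had the same deposited value on both arrays of each experiment, so that its change was 0. Exact ties between arrays of an experiment stood in 14 of the 34 members, PFKFB3, PFKFB4, KDM3A, ANGPTL4 and P4HA1 among them, and in 72.8% of all clusters.

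The IL-1β-alone arrays are shared by the GlcN, alloxan and combined comparisons, which are therefore given side by side. Alloxan alone raised 7 of the 34 members, where 6.13% of all genes were higher, and lowered 1, PFKM, where 7.21% were lower. The 7 were 2 glycolytic enzymes, PFKFB3 and HK2, and 5 other HIF targets, KDM3A, EGLN1, NDRG1, BNIP3 and ANGPTL4. The median log2 change was 0.06 over the enzymes and 0.13 over the other targets, against 0.01 over all genes. Without experiment 1, 2 or 3 the number higher was 4, 3 and 2, and PFKFB3 alone kept its call in all 3 of those fits.

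PFKFB3, the isoform with the strongest activity towards making fructose 2,6-bisphosphate, read 8.56, 9.33 and 9.77 with IL-1β alone and 8.91, 9.88 and 10.31 with alloxan. It read 8.56, 9.46 and 9.85 at rest, 8.30, 9.25 and 9.63 with GlcN and 8.71, 9.56 and 10.20 with both agents. The 2 alloxan conditions were the 2 highest and GlcN the lowest in each experiment. The change with alloxan was 0.48 ± 0.11, or 1.39-fold (adjusted p = 0.000472).

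KDM3A read 8.68, 9.36 and 9.60 with IL-1β alone and 8.99, 9.93 and 9.92 with alloxan. Its readings were 8.68, 9.51 and 9.60 at rest, 8.56, 9.21 and 9.27 with GlcN and 8.84, 9.61 and 9.91 with both agents. As for PFKFB3, the alloxan conditions were the highest and GlcN the lowest of each experiment, with a change of 0.40 ± 0.14 (adjusted p = 0.00321). EGLN1, which marks HIF alpha subunits for degradation, read 9.17, 9.46 and 10.48 with IL-1β alone and 9.45, 10.14 and 10.79 with alloxan. It read 9.18, 9.71 and 10.49 at rest, 8.97, 9.68 and 10.29 with GlcN and 9.32, 9.83 and 10.52 with both agents. Alloxan alone gave the highest array of each experiment, and the change was 0.42 ± 0.22 (adjusted p = 0.00415).

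NDRG1 read 9.76, 10.23 and 10.31 with IL-1β alone and 10.05, 10.74 and 10.91 with alloxan. Its other readings were 9.83, 10.40 and 10.56 at rest, 9.21, 10.04 and 10.28 with GlcN and 9.60, 10.25 and 10.70 with both agents. It was highest with alloxan alone and lowest with GlcN in each experiment, and rose by 0.47 ± 0.16 with alloxan (adjusted p = 0.00656). BNIP3 rose by 0.39 (adjusted p = 0.00846), HK2 by 0.36 (adjusted p = 0.0168) and ANGPTL4 by 0.16 (adjusted p = 0.024). ANGPTL4 was dim, at percentiles 38.8 to 51.4 of its arrays, and had exact ties in all 3 experiments. ENO2, LDHA and PDK1, lowered by GlcN, gave -0.07, -0.06 and -0.04 with alloxan, with adjusted p of 0.663, 0.687 and 0.895.

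**Figure D4:**
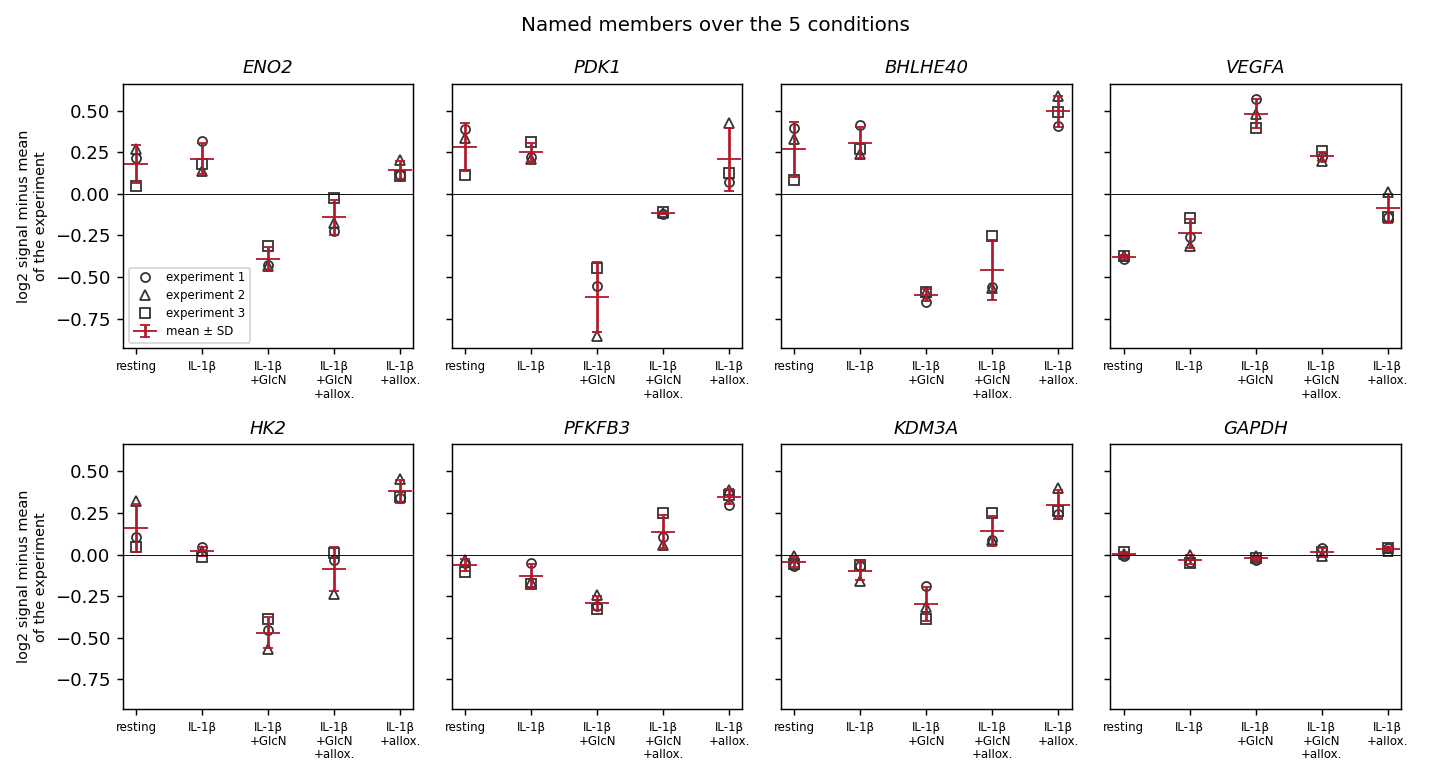
Log2 signal minus the mean of the 5 arrays of the experiment for 8 members over the 5 conditions, with a symbol for each experiment and red bars for mean ± SD (n = 3). ENO2, PDK1 and BHLHE40 are low in both GlcN conditions, VEGFA is high there, HK2, PFKFB3 and KDM3A are high with alloxan alone, and GAPDH stays near 0.

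With GlcN and alloxan together, 9 members were lower than with IL-1β alone, where 8.47% of all genes were, and 4 were higher, where 9.06% were. The 9 were BHLHE40, PFKP, PFKM, ENO2, ADM, LDHA, HK1, PKM and PFKFB4, 7 of them glycolytic enzymes. BHLHE40 gave -0.77 ± 0.23 (adjusted p = 0.000356) and PFKP -0.42 ± 0.10 (adjusted p = 0.000389). The 4 higher were VEGFA at 0.46 ± 0.06 (adjusted p = 0.000357), PFKFB3, KDM3A and MXI1. ALDOC gave -0.20, HK2 -0.10 and BNIP3 0.10, and none of these 3 passed. PDK1 gave -0.36 ± 0.05 (adjusted p = 0.0532). Without experiment 2 the number lower was 2 and the number higher 1, and without experiment 1 they were 3 and 2.

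Added to GlcN, alloxan raised 6 members, where 3.27% of all genes were higher, and lowered 1, where 3.52% were lower. The 6 were PFKFB3 (0.43 ± 0.14), KDM3A (0.44 ± 0.18), BNIP3 (0.44 ± 0.05), ALDOC (0.54 ± 0.08), HK2 (0.38 ± 0.04) and PDK1 (0.50 ± 0.21), with adjusted p from 0.00177 to 0.027. The 1 lowered was VEGFA at -0.26 ± 0.11 (adjusted p = 0.031). PFKP gave -0.01 and BHLHE40 0.15, and neither passed. None of these 7 calls was kept in all 3 fits that left out an experiment, and without experiment 3 the number higher was 0.

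In the presence of alloxan, GlcN lowered 9 members, where 1.67% of all genes were lower, and raised 1, VEGFA, where 1.86% were higher. The 9 were BHLHE40 (-0.95 ± 0.21, adjusted p = 0.00038), PFKP (-0.33 ± 0.13, adjusted p = 0.00792), HK2, ADM, ALDOC, PFKFB4, ANGPTL4, TPI1 and NDRG1. VEGFA gave 0.31 ± 0.11 (adjusted p = 0.0176). All 18 glycolytic enzymes had a negative mean change, with a median of -0.21 against -0.01 over all genes. Without experiment 1, 2 or 3 the number lower was 1, 0 and 2.

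The test of whether the GlcN effect differed with and without alloxan called 0 members. Over all genes 0.0119% were called as higher and 0.0593% as lower. At an unadjusted p under 0.05 limma gave 3 of the 34 members higher and 3 lower. Of all 16872 genes, 923 were higher and 937 lower at that level. VEGFA had the smallest p, with a difference between the 2 GlcN effects of -0.41 ± 0.24 (adjusted p = 0.136), followed by PDK1 at 0.55 ± 0.03 (adjusted p = 0.306) and ENO2 at 0.32 ± 0.11 (adjusted p = 0.364). For BHLHE40 the difference was -0.04, and for HK2 it was 0.02, with 95% intervals from -0.35 to 0.28 and from -0.24 to 0.29.

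**Figure D5:**
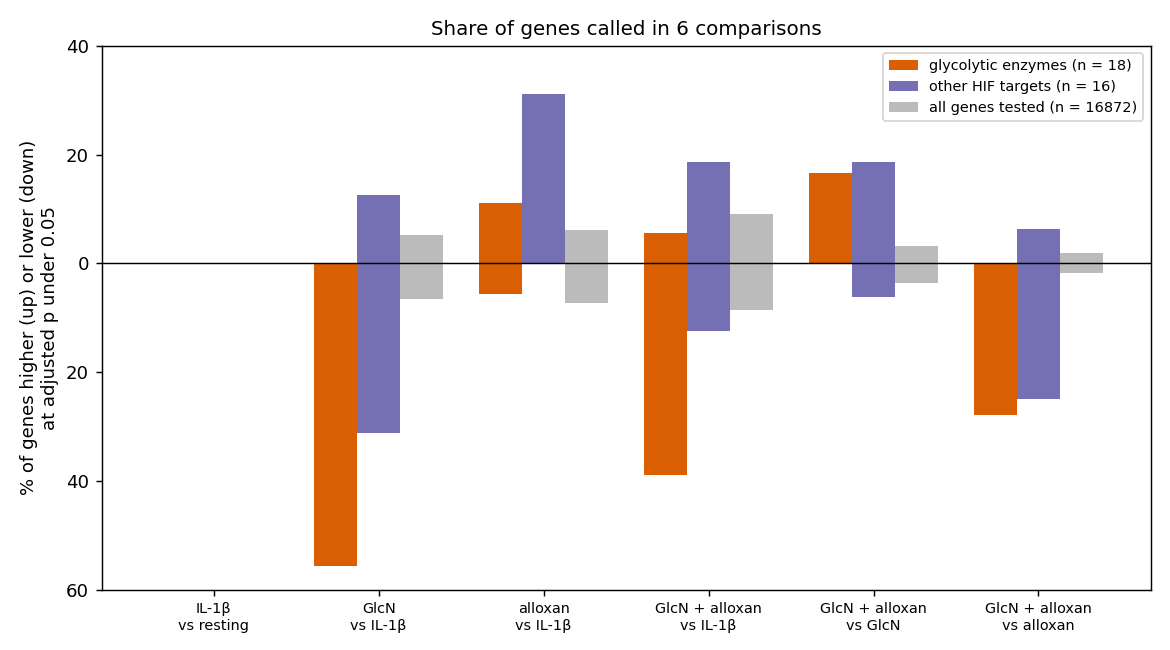
Percent of the 18 glycolytic enzymes, the 16 other HIF targets and all 16872 genes that were higher (bars up) or lower (bars down) at adjusted p under 0.05 in 6 comparisons, on an axis that starts at 0. GlcN against IL-1β alone lowered 10 of 18 enzymes and 6.62% of all genes, and IL-1β against resting shows no bars because nothing was called.

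The HIF subunits themselves did not pass the test with GlcN, apart from ARNT2. HIF1A gave 0.06 ± 0.09 (adjusted p = 0.506), EPAS1, the HIF-2 alpha subunit, 0.09 ± 0.13 (adjusted p = 0.465), and VHL 0.03 ± 0.03. Of 10 HIF subunits and regulators tested, 0 rose and 2 fell, CITED2, which competes with HIF for its coactivator, by 0.62 (adjusted p = 0.000213) and ARNT2 by 0.30 (adjusted p = 0.00502). Over all genes 5.29% rose and 6.62% fell. The median of this list was 0.03, and the arrays measure transcripts, not HIF protein.

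Further genes of glucose use and of the hypoxic response came from lists of their own. Among 10 glucose and lactate carriers, 1 fell with GlcN, SLC2A1, a widely expressed glucose transporter and a HIF target, by 0.63 ± 0.21 on the log2 scale (adjusted p = 0.00106). Among 25 other genes of glycolysis and gluconeogenesis, 1 rose and 2 fell, G6PC3 by 0.20, ADPGK by -0.19 and BPGM by -0.21, with a median of -0.01 over the list. These shares of carriers and of other glycolysis genes lie near the 5.29% higher and 6.62% lower over all genes. Among 29 other hypoxia genes, 14 fell and 2 rose, with a median of -0.23. STC1, the calcium-regulating hormone stanniocalcin, gave -1.68 ± 0.33 (adjusted p = 1.34e-05), TFRC, the transferrin receptor, -0.33 (adjusted p = 0.00239), and DDIT4, an inhibitor of mTOR induced by hypoxia and by other stress, rose by 1.11 ± 0.12 (adjusted p = 7.99e-05).

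Other lists moved on the same arrays. Over all genes, GlcN raised 5.29% and lowered 6.62%, and alloxan alone raised 6.13% and lowered 7.21%. Of 12 targets of ATF4, the factor of the amino acid and unfolded protein stress response, 11 rose with GlcN and 0 fell, with a median of 1.41, and SESN2 (1.33), TRIB3 (1.62) and PHGDH (1.36) had the smallest p. Of 12 synovial fibroblast markers, 5 fell and 1 rose, with a median of -0.15, and of 10 tested markers of other cell types 1 fell and 0 rose, with a median of -0.05. With alloxan alone 5 of the 12 ATF4 targets rose and 0 fell, with a median of 0.28, and 6 of the 12 synovial fibroblast markers fell and 0 rose, with a median of -0.24. The part of these changes in the values of the glycolysis and HIF genes was not tested.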

How the data were processed

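Total RNA of 15 MH7A samples was hybridised to Affymetrix Human Gene 1.0 ST arrays. The authors adjusted the background, normalized and summarised the probe signals by RMA, run in Affymetrix Expression Console (versions not given in the sources used here), and deposited log2 values, 1 per transcript cluster. These steps were kept, and no detection call was used. Groups and experiment numbers came from the submitters' labels, and the series' design text says that all experiments were done 3 times. Clusters were named from the platform annotation, 19429 of them after a match of the gene ID to the RefSeq table, and clusters with several symbols were left out. A gene was tested where at least 3 of the 15 arrays had its brightest cluster at or above their 20th percentile.

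The deviations from the group means correlated between arrays of the same experiment (30 pairs, r of 0.621 to 0.848), and the experiment number was taken as the block. Whether the shared deviations came from the cultures or from the processing of the arrays was not tested. No 2 arrays were duplicates (highest correlation 0.998). With lmFit and eBayes of limma 3.58.1 (R 4.3.3), 5 group means were fitted with the experiment as a replicate block, with 8 residual and 11.1 total degrees of freedom, Benjamini-Hochberg adjustment over 16872 genes, two-sided p and a threshold of 0.05. The t-test of the study was unpaired, and the study lists further normalized values beside it, a step not repeated here. The fit without the block was an alternative, as were other filters, normalizations, moderation, the mean over clusters, only the groups compared, the methods' t-test and leaving out arrays or experiments. SD is over 3 experiments, the number of arrays limits the precision, and p-values measure the spread between these repeats of 1 cell line. The fit was also run on simulated data with independent normal noise. That noise does not copy the exact ties of the deposited values, and no result here rests on that run. Figures were drawn with matplotlib 3.10.9 in Python 3.11.15.

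The members and the lists were chosen with earlier results of these data known. Values on every array are given for up to 6 members per group past the threshold with the smallest p for GlcN, for members called against their group's direction, for up to 4 members with alloxan, and for HK2, LDHA and GAPDH. For other lists up to 3 called genes are named. HIF1A, EPAS1, VHL, the genes named with no call and the marker genes were chosen by their known roles. Tables of the study's own comparisons were not used.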

Additional observations from a re-analysis of the deposited data

How the results depend on the processing

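Leaving out the pairing of the arrays ended every call. Without the replicate block limma called 0 members in each comparison, also over all 5 conditions (0 of 34), and the methods' t-test, run on the deposited log2 values and not on the further normalized values that the study lists, called 0 after Benjamini-Hochberg adjustment and, unadjusted, 1 member lower with GlcN and 0 in the other comparisons. When the blocked fit took the compared groups alone, 1 member was higher with both agents than with IL-1β alone and 0 were called elsewhere, with fewer arrays and residual degrees of freedom in each fit. With equal medians of all arrays, alloxan added to GlcN lowered 0 members. No filter on dim genes, the 50th percentile, the mean over clusters, quantile normalization and the intensity trend kept every count within 1.5 times.

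When single arrays or whole experiments were left out, members lower with GlcN numbered 6 to 16 (6 without experiment 2, 8 without experiment 1) and higher 1 to 2 (1 without any of the 3 experiments). With alloxan they numbered 2 to 9 higher and 0 to 1 lower. For both agents against IL-1β alone they were 1 to 4 higher and 2 to 10 lower, for alloxan added to GlcN 0 to 7 higher and 0 to 1 lower, and for GlcN given beside alloxan 0 to 1 higher and 0 to 12 lower. Over all 5 conditions 11 to 25 differed, 11 without experiment 2. IL-1β against resting and the interaction stayed at 0. Of the 17 GlcN calls, 12 were kept in every fit without 1 array and 6 in every fit without 1 experiment, those of PFKP, ALDOC, ENO2, PDK1, VEGFA and BHLHE40. The cause was not tested.

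Among changes that were not called, quantile normalization turned ALDOA to 0.0044 and GAPDH to -0.000884. Leave-out values spanned 0 for PFKFB2 (-0.0831 to 0.0498), ALDOA (-0.0575 to 0.0135), GAPDH (-0.000638 to 0.0279), EGLN1 (-0.191 to 0.0160) and P4HA2 (-0.129 to 0.0435). With 3 experiments, a change as small as these cannot be given a direction.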

Other observations

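Other genes of glucose transport and of the hypoxic response are given here for alloxan, where 6.13% of all genes rose and 7.21% fell. Of 10 glucose and lactate carriers 3 rose and 1 fell. SLC2A3, a high-affinity glucose transporter, rose by 0.84 ± 0.18 on the log2 scale with alloxan (limma with the experiment as a block, adjusted p = 0.000405), and SLC2A14, whose sequence is so close to SLC2A3 that array probes may read both, rose by 0.45 (adjusted p = 0.032). SLC2A8 rose by 0.26 (adjusted p = 0.00923) and SLC16A7, a monocarboxylate carrier, fell by 0.43 (adjusted p = 0.00322). SLC2A1 gave 0.01 with alloxan (adjusted p = 1). Among the 29 other hypoxia genes 4 rose and 6 fell with alloxan, with a median of 0.01. DDIT4 rose by 0.88 ± 0.35 (adjusted p = 0.000515) and AK4, a mitochondrial adenylate kinase, by 0.46 (adjusted p = 0.00217), while STC1 fell by 0.79 ± 0.08 (adjusted p = 0.002) and LOXL2, a collagen cross-linking enzyme, by 0.47 (adjusted p = 0.0129). Of the 10 HIF subunits and regulators, EPAS1 (0.23, adjusted p = 0.0467) and HIF1AN, the asparaginyl hydroxylase that inhibits HIF (0.36, adjusted p = 0.0342), rose with alloxan and ARNT2 fell by 0.20 (adjusted p = 0.0338). These genes were chosen after their values were seen.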
